A study of Rattus norvegicus with 12 samples.

Results

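The genes described here encode the subunits of the mitochondrial respiratory chain and of the ATP synthase, with a few factors that carry the same family names. They were chosen by the gene symbol of the array's annotation, as all symbols that begin with Nduf, Uqcr or Atp5, Cox4 to Cox8, Cyc1 and Sdha to Sdhd. The rule gave 97 probe sets of 87 genes, out of 14218 genes with a symbol of their own on the array. A further 7 probe sets that carry several symbols were left out, so that Cox7a2, Uqcrb, Ndufs5, Ndufa10, Atp5mc1 and Atp5mc2 have no values here and Cox5a is seen by a dim probe set alone. Of the 87 genes, 34 belong to complex I, 4 to complex II, 8 to complex III, 16 to complex IV and 15 to complex V. The remaining 10 are assembly factors, a regulator, a paralog (Ndufa4l2) and a pseudogene. Each gene is represented by the brightest of the probe sets that carry its symbol alone.

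The respiratory chain passes electrons from NADH and succinate to oxygen and pumps protons across the inner mitochondrial membrane, and the ATP synthase uses the proton gradient to make ATP. Complex I accepts electrons from NADH, complex II from succinate, complex III hands them to cytochrome c and complex IV to oxygen. White fat cells have few mitochondria beside brown fat cells, and use them largely to supply ATP and citrate for fat synthesis and to oxidise fatty acids.

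RNA came from epididymal white adipose tissue of Jcl:Wistar rats aged 24 weeks, on 12 Affymetrix arrays in 3 groups of 4. The control group (AL) and the calorie-restricted group (CR) were wild Wistar rats without a transgene. AL ate ad libitum and CR had 70% of that energy from 6 weeks of age. The third group (Tg) was a dwarf line, heterozygous for an anti-sense growth hormone (GH) transgene, and ate ad libitum. The sources used here do not name the promoter of the transgene. All groups were offered food 30 minutes before the dark phase and were killed the next morning after the lights came on. The titles number biological replicates within each group. The genotype entry is (-/-) on all 12 arrays, also on the Tg arrays, so groups follow the titles.

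The values are log2 of the intensity per probe set in the authors' series matrix. The tissue's own markers were bright: the mean log2 intensity of 14 adipocyte genes was 12.88 to 13.52 on every array. Ucp1, which defines brown fat cells, lay between 5.50 and 6.77, under the filter on dim probe sets. Some fat pads carried RNA of neighbouring tissue. The mean of 11 spermatid genes was 10.28 to 12.45 on AL1, AL2, CR1 and Tg2 and 6.61 to 7.88 elsewhere, and that of 10 duct epithelium genes was 9.88 to 10.56 on AL3, CR2, CR4, Tg2 and Tg4 and 7.35 to 8.64 elsewhere. Caput epididymis genes reached 12.28 on CR4, and exocrine pancreas genes 13.07 on Tg1. CR3 had the highest background, 58.5 scanner units against 34.5 to 44.1, the most blank probes, 5.71% against 0.325% to 1.89%, and the lowest correlation of its matrix values with its probe z-scores, 0.987 against 0.992 to 0.995. In bulk tissue, fewer cells of a type and less RNA per cell cannot be told apart. The array code in the sample descriptions is shared within a group and differs between groups, so that if it marks a working session, session and group cannot be told apart.

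Most subunit genes were slightly higher in the fat of restricted rats than in controls, and 1 of them rose past the test. Of 85 members tested, 74 were higher in CR than in AL, 11 were lower, and the median difference was 0.18 on the log2 scale, or 1.13-fold. Over all 23281 probe sets tested the median was 0.00 and 49.9% were higher. The gene that rose was Ndufs3, a core subunit of the matrix arm of complex I. Among all probe sets 0.636% rose and 0.816% fell by the same rule, adjusted p under 0.05 in limma, so 1 called member of 85 is near the background. The arrays of CR lay wholly above those of AL for 18 of the 85 members (21.2%) and wholly below for 0, against 4.30% and 5.61% of all probe sets. At an unadjusted p under 0.05 there were 27 members (31.8%), against 16.7% of all probe sets.

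Ndufs3 had log2 intensities of 11.27, 11.30, 11.33 and 11.27 on the AL arrays, 11.65, 11.61, 11.68 and 11.50 on the CR arrays, and 11.20, 11.30, 11.25 and 11.30 on the Tg arrays. Every CR array was above every AL and Tg array, and AL and Tg overlapped. The mean went from 11.29 ± 0.03 in AL to 11.61 ± 0.08 in CR (SD, n = 4), a rise of 1.25-fold (log2 change 0.32, SE 0.05, limma adjusted p = 0.0251). All 11 probes of its probe set had a higher mean z-score in CR than in AL. All 11 were also higher in the mean of the 5 arrays with high duct epithelium scores, of which 2 are CR, 2 Tg and 1 AL, than in that of the other arrays. Most other members examined by probe went the other way. Higher on those 5 arrays were 0 of 11 probes for Ndufb7, Cyc1 and Cox5a, 3 for Ndufb8 and Ndufs4, and 4 for Ndufa11. Atp5if1 was like Ndufs3, with 11 of 11 in its brightest probe set, and had 5 of 11 in each dimmer one. The size of the Ndufs3 difference held between 0.30 and 0.35 in the 26 alternatives tried, but the call was lost in 11 of them. Among these it was lost without AL1 (adjusted p = 0.0682), AL3 (0.0563), AL4 (0.0933), CR1 (0.0632), CR2 (0.0706) and CR3 (0.0563). Without CR4, Ndufb7 and Ndufa11 passed as well, beside 283 probe sets in all against 338 with it.

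**Figure D1:**
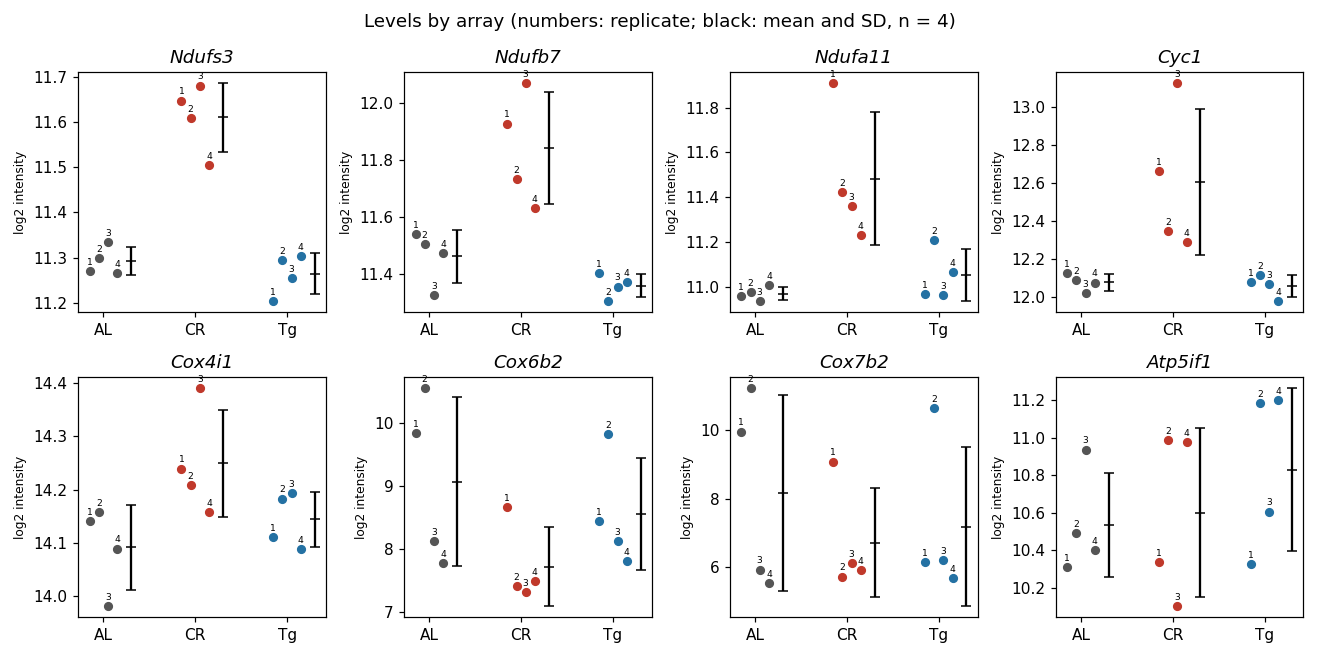
Log2 intensity of 8 members on each array, in AL (grey), CR (red) and Tg (blue), with replicate numbers beside the points and the mean and SD (n = 4) in black. The CR points of Ndufs3, Ndufb7, Ndufa11 and Cyc1 lie above all AL and Tg points, while Cox6b2 and Cox7b2 are high on AL1, AL2, CR1 and Tg2 and Atp5if1 on AL3, CR2, CR4, Tg2 and Tg4.

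Complex I is the entry point for NADH. Of its 34 genes 32 were higher in CR, with a median of 0.18 and a range from -0.02 to 0.54. Next to Ndufs3 stood the accessory subunits Ndufb7 and Ndufa11 of the membrane arm. Ndufb7 was 11.54, 11.51, 11.33 and 11.47 in AL, 11.93, 11.73, 12.07 and 11.63 in CR, and 11.40, 11.30, 11.36 and 11.37 in Tg. CR lay wholly above AL, at a difference of 0.38 (SE 0.09, limma adjusted p = 0.0639). Ndufa11 was 10.96, 10.98, 10.94 and 11.01 in AL against 11.91, 11.43, 11.36 and 11.23 in CR, a difference of 0.51 (SE 0.12, adjusted p = 0.0648), again without overlap. Ndufab1, the mitochondrial acyl carrier protein, which also serves lipoic acid synthesis, was at 0.34 (SE 0.15, adjusted p = 0.289). Ndufb4, the brightest complex I gene, was 13.20 ± 0.05 in AL and 13.22 ± 0.02 in CR (SD, n = 4).

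For several members the level on CR3 depended on the summary of the probes, among them Ndufs4 and Ndufb8, the gene with the largest complex I difference. Ndufs4, a late-assembled subunit that stabilises the NADH-binding part, was 9.71, 9.64 and 9.53 on CR1, CR2 and CR4 and 11.01 on CR3, beside 9.51 to 9.70 in AL. When median polish of the deposited probe z-scores took the place of the series matrix, Ndufs4 on CR3 lay 0.02 above the mean of the other CR arrays, against 1.38 in the matrix. For Ndufb8 that excess was 0.98 in the matrix and 0.16 by median polish. It was also smaller by median polish for Ndufc2 (0.74 and 0.08), Ndufa6 (0.56 and -0.05) and Cyc1 (0.69 and 0.23). Other members went the other way, such as Ndufa11 (-0.16 in the matrix and 0.21 by median polish).

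Succinate dehydrogenase, complex II, is shared with the citrate cycle. All 4 genes were higher in CR (median 0.27), and 0 of 4 passed. Sdhd, a membrane anchor and the brightest of them, was 12.46 ± 0.06 in AL and 12.78 ± 0.14 in CR (SD, n = 4; 0.32, SE 0.10, adjusted p = 0.129), without overlap. A second Sdhd probe set was at 0.54 (adjusted p = 0.0843). The flavoprotein Sdha was at 0.28, the iron-sulfur subunit Sdhb at 0.26 and the anchor Sdhc at 0.23 (adjusted p = 0.301, 0.277 and 0.397).

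In complex III 7 of 8 genes were higher (median 0.23), and 0 of 8 passed. Cyc1, cytochrome c1, which delivers electrons to cytochrome c, was 12.13, 12.09, 12.02 and 12.08 in AL, 12.66, 12.35, 13.13 and 12.29 in CR, and 12.08, 12.12, 12.07 and 11.98 in Tg. The CR arrays were all above the others but wide apart, and the difference of 0.53 did not pass (SE 0.15, adjusted p = 0.103). By median polish it was smaller, 0.36, and passed (adjusted p = 0.0391). The core protein Uqcrc1 was at 0.22 (adjusted p = 0.221), Uqcrc2 at 0.23 (0.319), the Rieske protein Uqcrfs1 at 0.29 (0.414) and Uqcr10, the brightest, at 0.30 (0.519). Uqcr11 was the member at -0.20 (0.370).

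**Figure D2:**
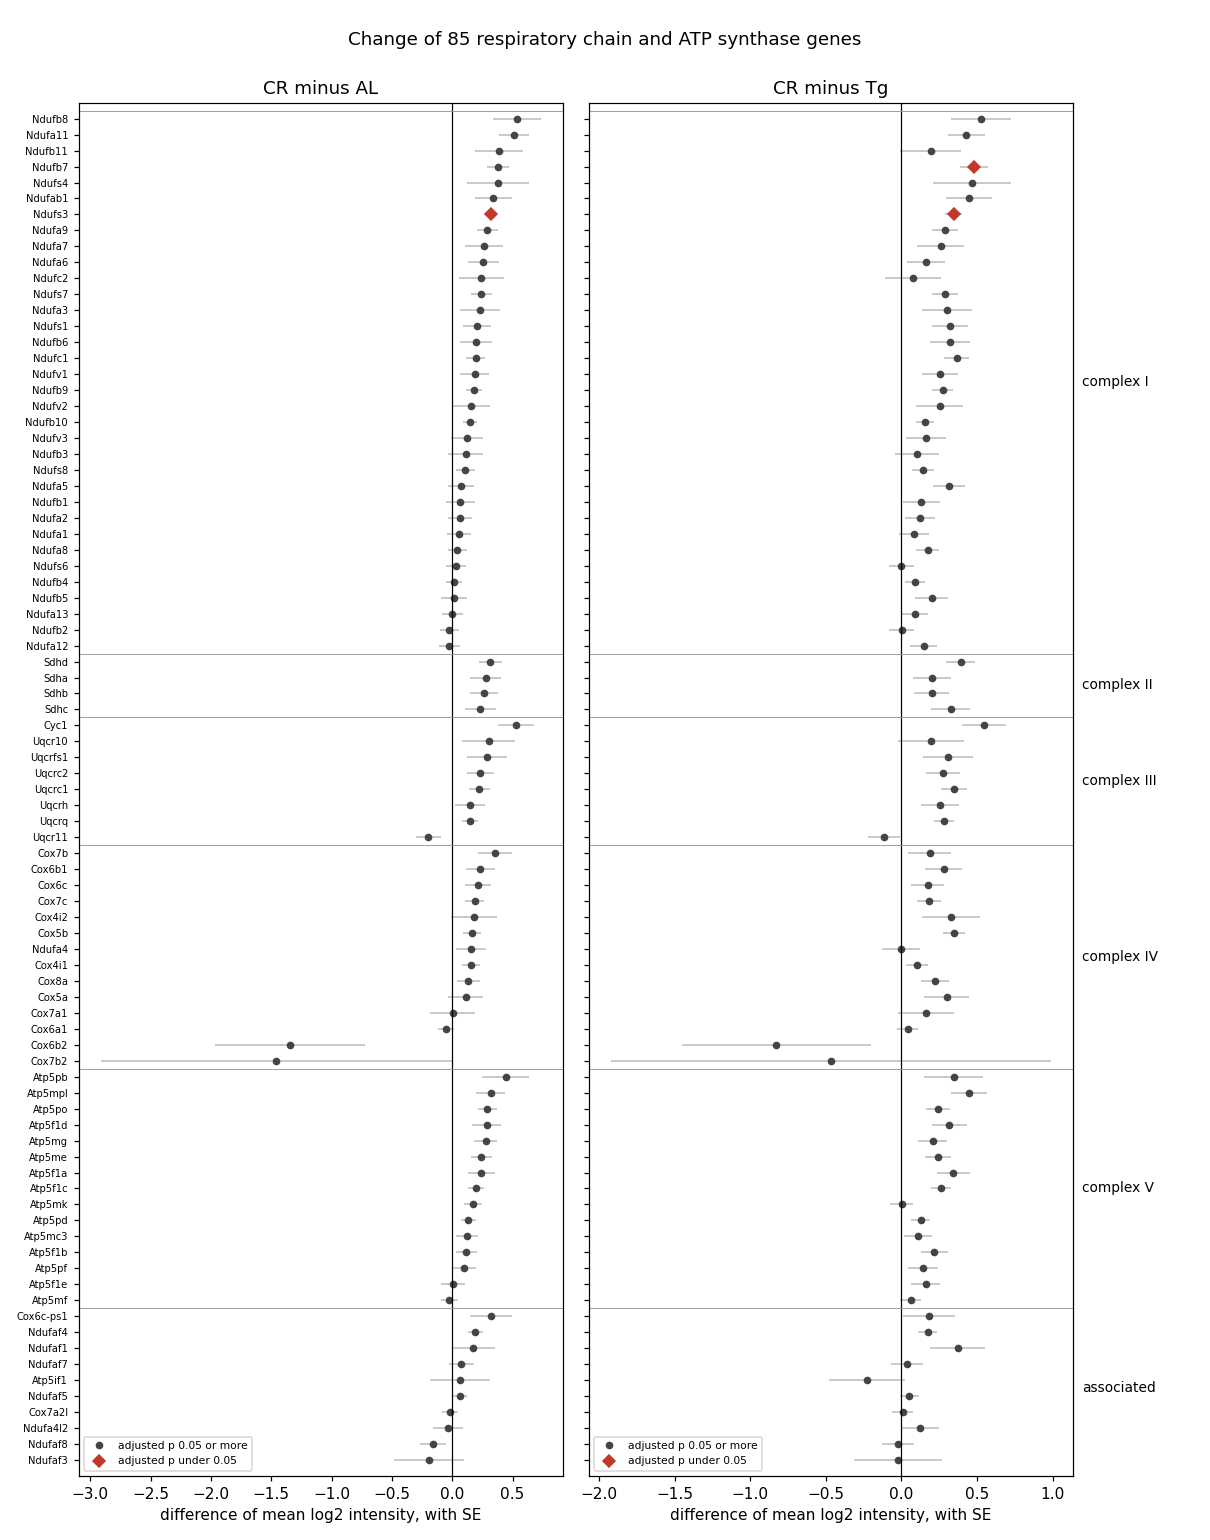
Difference of mean log2 intensity for the 85 members tested, CR minus AL (left) and CR minus Tg (right), grouped by complex, with the SE of the limma fit as bars and calls at adjusted p under 0.05 as red diamonds. Most points lie right of 0, with Ndufs3 called in both panels and Ndufb7 in the right one; Cox6b2 and Cox7b2 lie far left with wide bars.

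Complex IV, cytochrome c oxidase, has paralogous subunits that differ between tissues. Of 14 genes tested 11 were higher in CR (median 0.16), and 0 passed. The ubiquitous Cox4i1, the brightest gene of the complex, was 14.09 ± 0.08 in AL and 14.25 ± 0.10 in CR (SD, n = 4; 0.16, SE 0.07, adjusted p = 0.311). Cox7b was at 0.36 (0.229), Cox6b1 at 0.23 (0.371), Cox7c at 0.19 (0.274), Cox5b at 0.16 (0.30), Ndufa4, named for complex I but known as a complex IV subunit, at 0.16 (0.552) and Cox8a at 0.13 (0.496). Cox5a, seen by a dim probe set of mean 8.48 in AL, was at 0.11 (0.731), while a bright probe set shared with the symbol LOC100361008 (mean 13.28), which was left out, was at 0.24 from AL and 0.40 from Tg, and Cox6a1 at -0.05 (0.723). The paralogs of muscle and brown fat were dim. Cox6a2 (6.07 to 7.19) and Cox8b (5.75 to 7.10) did not pass the filter, which left 14 of 16 genes, and Cox7a1 was 6.58 to 7.64 and at 0.00. Cox4i2, the lung form whose transcription rises in hypoxia, was 7.63 to 8.72 and at 0.18 (0.664).

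The paralogs known from testis were high on the arrays with spermatid RNA. Cox7b2 was 9.96, 11.24, 5.93 and 5.52 in AL, 9.09, 5.72, 6.10 and 5.91 in CR, and 6.16, 10.65, 6.22 and 5.67 in Tg. It was high on AL1, AL2, CR1 and Tg2, the arrays with the highest spermatid scores, and at most 6.22 on the rest. Cox6b2 was 8.67 to 10.55 on those arrays and 7.32 to 8.45 on the rest. The complex I assembly factor gene Ndufaf3 was 10.41 to 11.19 there and 9.86 to 10.17 elsewhere. The 4 arrays stood wholly above the other 8 in these 3 of 85 members tested (3.53%) and in 2.16% of all probe sets. The differences between CR and AL, -1.46 for Cox7b2, -1.35 for Cox6b2 and -0.19 for Ndufaf3 (adjusted p = 0.643, 0.307 and 0.763), stand beside 2 such arrays in AL and 1 in CR. With the scores as covariates Cox6b2 was at -0.62 (adjusted p = 0.0426), and without the 4 arrays at -0.54 (0.332).

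Complex V is the ATP synthase. Of 15 genes 14 were higher in CR (median 0.20, range -0.02 to 0.44), and 0 passed. The catalytic subunit Atp5f1b, the brightest, was 13.96 ± 0.12 in AL and 14.07 ± 0.15 in CR (SD, n = 4; 0.12, adjusted p = 0.542), and its partner Atp5f1a was at 0.24 (0.307). Atp5f1c, the central stalk, was at 0.20 (SE 0.07, 0.161) and Atp5po, part of the peripheral stalk, at 0.29 (SE 0.08, 0.0993), both without overlap. Atp5mc3, which encodes the proton-carrying ring protein, was at 0.12 (0.530).

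Among the associated genes, 6 of 10 were higher, with a median of 0.06. Cox7a2l, a factor of supercomplex assembly, was at -0.02, and Ndufa4l2, induced in hypoxia, at -0.03. Atp5if1, the inhibitor of ATP hydrolysis by complex V, was high on the arrays with duct epithelium RNA. It was 10.94 to 11.20 on AL3, CR2, CR4, Tg2 and Tg4 and 10.10 to 10.61 on the other 7 arrays, a pattern of 1 of 85 members (1.18%) and 8.13% of all probe sets, and CR stood at 0.07 from AL (adjusted p = 0.914). Its other tested probe set, at a mean of 6.80, was at 0.12. The 5 arrays with high duct scores lay wholly below the others in 3 members (3.53%), Ndufa2, Ndufa13 and Atp5mf, and in 3.30% of all probe sets.

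The sequences before 5 of the genes are shown because promoters of such genes are known to share binding sites for the factors NRF1 and GABPA, an ETS family protein. They are the 250 bases before the transcription start in RefSeq, build GRCr8, 5′ to 3′, with motif matches in capitals. Ndufs3 (chr3:97339655-97339904, minus strand) and Ndufb7 (chr19:41477292-41477541, minus strand) are the called members, Ndufa11 (chr9:1637364-1637613, plus strand) and Sdha (chr1:30764303-30764552, plus strand) hold 2 NRF1 matches each, and Cox7b2 (chr14:37046831-37047080, plus strand) is the paralog that was high on the arrays with spermatid RNA.
Ndufs3: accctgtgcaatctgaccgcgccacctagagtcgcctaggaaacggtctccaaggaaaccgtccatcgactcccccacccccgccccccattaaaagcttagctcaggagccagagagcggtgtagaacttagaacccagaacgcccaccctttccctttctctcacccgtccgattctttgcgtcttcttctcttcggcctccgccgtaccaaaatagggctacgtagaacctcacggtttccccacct
Ndufb7: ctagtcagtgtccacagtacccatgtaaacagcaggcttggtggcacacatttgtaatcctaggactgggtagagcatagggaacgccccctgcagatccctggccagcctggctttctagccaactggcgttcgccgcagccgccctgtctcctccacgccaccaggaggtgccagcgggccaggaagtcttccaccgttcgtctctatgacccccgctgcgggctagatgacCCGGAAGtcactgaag
Ndufa11: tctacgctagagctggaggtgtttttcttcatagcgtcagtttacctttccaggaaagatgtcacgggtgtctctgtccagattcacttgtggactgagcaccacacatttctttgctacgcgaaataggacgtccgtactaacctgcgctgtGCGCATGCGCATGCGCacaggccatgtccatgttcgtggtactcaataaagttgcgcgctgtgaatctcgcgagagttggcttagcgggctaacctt
Sdha: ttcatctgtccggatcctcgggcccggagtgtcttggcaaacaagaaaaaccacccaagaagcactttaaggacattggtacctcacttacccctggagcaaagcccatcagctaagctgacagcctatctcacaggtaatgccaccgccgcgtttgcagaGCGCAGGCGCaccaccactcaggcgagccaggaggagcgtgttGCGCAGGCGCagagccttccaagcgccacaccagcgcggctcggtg
Cox7b2: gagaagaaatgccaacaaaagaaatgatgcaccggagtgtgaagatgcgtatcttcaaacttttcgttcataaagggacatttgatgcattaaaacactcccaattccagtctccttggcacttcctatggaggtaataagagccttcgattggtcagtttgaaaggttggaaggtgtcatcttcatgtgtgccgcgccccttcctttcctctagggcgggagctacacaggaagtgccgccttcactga
The motifs searched on both strands were GCGCA, any base and GCGC for NRF1, CCGGAAG for ETS factors, and TCAAG followed by GTCA for the receptor ERRalpha. Of the 85 members tested 76 had a promoter in the table. An NRF1 match lay in 12 of these (15.8%) and in 5.06% of 21842 protein-coding promoters, an ETS match in 21 (27.6%) against 9.01%, and an ERRalpha match in 1 (1.32%), that of Atp5mc3, against 0.320%. Median GC content was 55.6% in the members and 54.0% in protein-coding promoters. Ndufs3, which rose, held none of these letters, Ndufb7 held 1 ETS match from 16 to 10 bases before the start, and the pair of NRF1 matches of Ndufa11 overlap each other. Cox7b2 and Cox6b2 held none. These matches describe letters and do not show binding, and their part in the differences between groups was not tested.

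The level of the subunit genes varied among the CR arrays. The mean over the 34 complex I genes was 11.62, 11.60, 11.43 and 11.60 in AL, 11.77, 11.63, 12.01 and 11.58 in CR, and 11.53, 11.56, 11.51 and 11.44 in Tg. CR3 was highest, CR1 next, and CR2 and CR4 lay near the AL arrays. CR2 and CR4 are the CR arrays with high duct epithelium scores. Of the other arrays with high duct scores, AL3 was lowest in AL and Tg4 lowest in Tg, but Tg2 was highest in Tg. The part of duct RNA in this spread was not tested. Complexes II, III and V showed CR3 and CR1 in the same places, at 12.94 and 12.62 for complex II, 12.81 and 12.61 for complex III, and 13.08 and 12.85 for complex V. CR3 was the highest of the 12 arrays for 60 of the 85 members (70.6%) and for 21.4% of all probe sets. Its median excess over the mean of the other CR arrays was 0.28 in the members (72 of 85 above 0) and 0.02 over all probe sets. By median polish the members' excess was 0.24 (78 of 85), so the height of CR3 appeared in both summaries. The excess of single members, such as Ndufs4 and Ndufa6, did not.

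**Figure D3:**
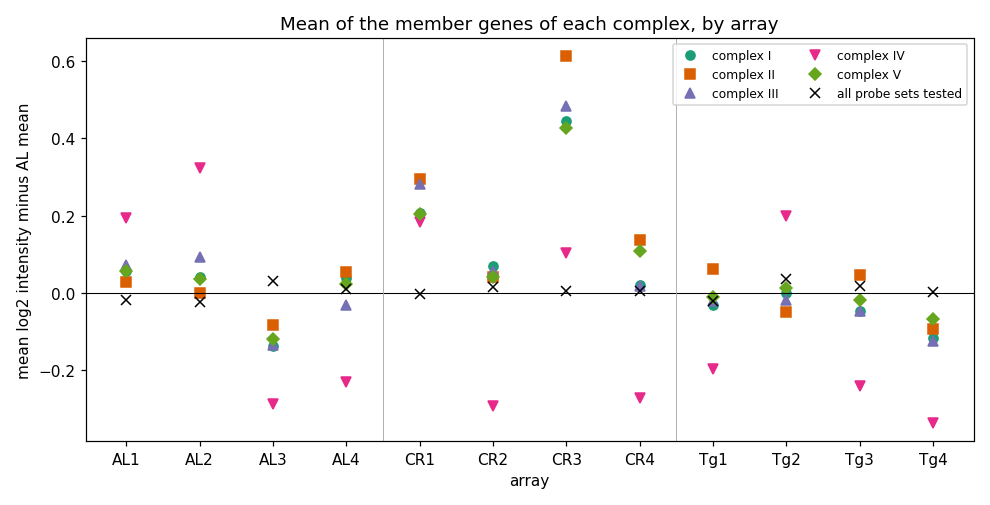
Mean log2 intensity of the tested genes of each complex on each array, minus its AL mean, with the mean of all 23281 probe sets tested as crosses. CR3 and CR1 stand highest for complexes I, II, III and V while the crosses stay near 0; the complex IV mean includes Cox6b2 and Cox7b2 and is high on AL1, AL2, CR1 and Tg2, with CR3 next.

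Without CR3 the members' median difference between CR and AL was 0.10, with 65 of 85 higher and 0 called, against 0.18, 74 and 1 with it. The probe sets called in all then fell from 338 to 95. Leaving out AL1, AL3, AL4, CR1 or CR2 instead also gave 0 members called, with 44 to 84 probe sets in all. By complex the medians without CR3 were 0.06 for I, 0.13 for II, 0.14 for III, 0.07 for IV and 0.14 for V. By median polish without CR3, a setting chosen after seeing the data, the median was 0.10 as well, with 74 of 85 higher. Ndufa11 was then called, beside 116 probe sets in all. Beside CR3's background, its adipocyte score was the highest of all arrays, 13.52 against 13.14 to 13.38 in the other CR arrays, and its macrophage score the lowest, 10.36. Scores of brown or beige adipocyte genes (7.57 against 7.03 to 7.25) and of skeletal or heart muscle genes (7.42 against 6.91 to 7.22) were also highest on CR3, though low beside the adipocyte score. The former list holds the members Cox7a1 and Cox8b and the latter Cox6a2, so these scores are in part the members' own values. Only 5 of 10 brown or beige genes and 6 of 11 muscle genes passed the filter on dim probe sets. Over 14 macrophage genes tested, all 14 were lower in CR than in AL and 5 fell, while 0.816% of all probe sets fell, with scores of 10.36 to 10.66 in CR, 10.96 to 11.13 in AL and 10.76 to 11.15 in Tg. Of 9 fibroblast genes 9 were lower in CR than in AL (median -0.22) and of 9 endothelium genes 8 (median -0.36), with 0 called in either list, and against Tg the fibroblast median was -0.43. All 10 duct epithelium genes were higher in CR than in AL (median 0.92), with 0 called. Of 14 adipocyte genes 6 were higher and 8 lower (median -0.04), and 1 rose, beside 0.636% of all probe sets. The part of these cell types and of the background in the subunit values was not tested.

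**Figure D4:**
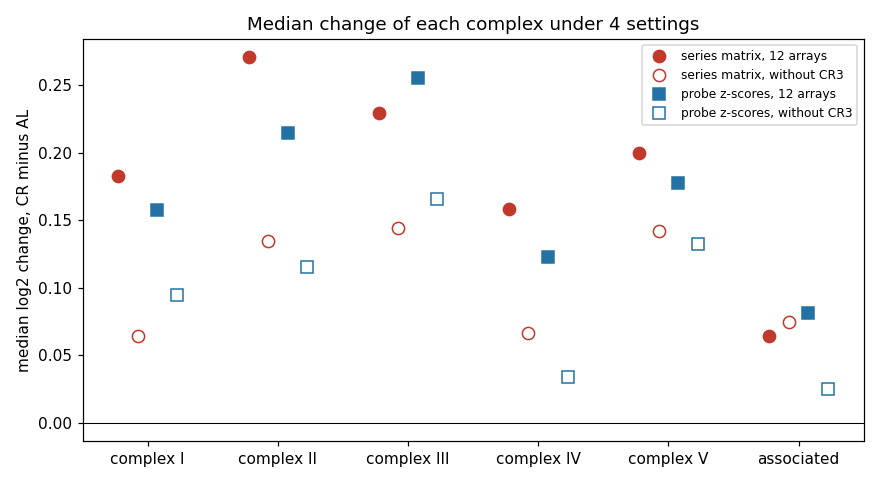
Median log2 change of each complex, CR minus AL, from the series matrix (circles) and from median polish of the probe z-scores (squares), with all 12 arrays (filled) and without CR3 (open). All medians are above 0, and for complexes I to V the open symbols, between 0.03 and 0.17, lie below the filled ones.

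With the spermatid and duct scores as covariates, 18 of 85 members rose and 1 fell in CR against AL. Of all 23281 probe sets 1641 were then called, against 338 without the covariates. The 18 were 8 genes of complex I, 2 of II, 2 of III and 6 of V. They included Ndufs3, Ndufb7, Ndufa11, Cyc1, Sdhc, Sdhd, Uqcrc1, Atp5f1c and Atp5po. The gene that fell was Cox6b2. The median difference was then 0.24, and 78 of 85 were higher. Without the 4 arrays of high spermatid score the median was 0.20 and 77 of 85 were higher, but 0 members were called and 2 probe sets in all.

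In the growth hormone antisense rats no member passed the test against AL. Of the 85 members 28 were higher and 57 lower in Tg than in AL, with a median of -0.05 against -0.01 for all probe sets, of which 48.1% were higher. Beside them, 14 of 14 adipocyte genes were lower in Tg than in AL (median -0.10) and 10 of 10 duct epithelium genes higher (median 1.05), with 0 called, and their part in the members' values was not tested. In limma 0 members and 0% of all probe sets rose or fell. At an unadjusted p under 0.05 there were 3 members (3.53%) and 5.95% of all probe sets. Tg lay wholly above AL in 1 member and wholly below in 3, or 1.18% and 3.53%, near the 1.78% and 2.61% of all probe sets. The smallest p was that of Cox5b, 12.66 ± 0.06 in AL and 12.47 ± 0.08 in Tg (SD, n = 4; -0.18, SE 0.08, adjusted p = 0.797). Ndufs3 was at -0.03 (SE 0.05), Ndufb7 at -0.10 (SE 0.09) and Cyc1 at -0.02 (SE 0.15). The median lay between -0.09 (without AL3) and -0.03 (without AL2) when 1 array was left out, and was 0.04 with the marker scores as covariates.

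Against the Tg rats, most subunit genes were again higher in restricted rats, and 2 rose. Of the 85 members 77 were higher in CR, with a median of 0.20 (1.15-fold) against -0.01 over all probe sets, of which 48.3% were higher. The comparison shares its CR arrays with that of CR and AL, and is no second sample of them. Ndufs3 rose 1.27-fold (0.35, SE 0.05, limma adjusted p = 0.0179) and Ndufb7 1.40-fold (0.48, SE 0.09, adjusted p = 0.0325), from 11.26 ± 0.05 to 11.61 ± 0.08 and from 11.36 ± 0.04 to 11.84 ± 0.20 (SD, n = 4). These were 2 of 85 members, while 0.735% of all probe sets rose and 0.515% fell. CR lay wholly above Tg in 23 members (27.1%) and wholly below in 0, against 5.03% and 6.10% of all probe sets. At an unadjusted p under 0.05 there were 32 members (37.6%), against 16.9% of all probe sets. In the same-numbered pairs of CR and Tg arrays, deviations from the group means were positively correlated (0.320 to 0.620). Only CR1 and CR4 matched the Tg array of their own number best, so a pairing is not shown. With the replicate number as a block in limma neither call held (Ndufs3 adjusted p = 0.0513, Ndufb7 0.0694).

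By complex the CR against Tg medians were 0.23, 0.26, 0.28, 0.18 and 0.22 for I to V. All 15 complex V genes and 33 of 34 complex I genes were higher. Cyc1 was at 0.55 (adjusted p = 0.103), Cox5b at 0.35 (0.0518), Uqcrc1 at 0.35 (0.0785), Sdhd at 0.39 (0.0755), Atp5f1a at 0.34 (0.153) and Atp5f1c at 0.26 (0.0821), and in each CR lay wholly above Tg. Ndufs3 lost its call without CR1 (adjusted p = 0.0644), Tg1 (0.0507), Tg2 (0.0543) or Tg3 (0.0671). Ndufb7 lost it without AL1 (0.0530), AL4 (0.0565), CR1 (0.0955), CR2 (0.0575), CR3 (0.0675), Tg1 (0.0688), Tg2 (0.0907), Tg3 (0.0964) or Tg4 (0.0706). Without CR3 the median was 0.12, and without CR4 it was 0.25 with 8 members called, beside 468 probe sets in all against 291 with it.

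Genes that build or feed the chain were taken from 4 lists. Of 43 assembly factors tested 37 were higher in CR than in AL (median 0.14) and 1 rose, Atpaf1, which assembles the ATP synthase head. Of all probe sets 49.9% were higher and 0.636% rose. Atpaf1 went from 9.30 ± 0.07 to 9.58 ± 0.05 (SD, n = 4; 1.21-fold, SE 0.06 on the log2 scale, adjusted p = 0.0385). Its call was lost in 18 of 26 alternatives, among them each that left out 1 array other than CR4 (adjusted p = 0.0504 to 0.125), while its size held between 0.24 and 0.32. Of 17 genes of electron carriers and coenzyme Q synthesis 16 were higher (median 0.15) and 0 passed, the smallest p being that of Dhodh, a dehydrogenase of pyrimidine synthesis that reduces coenzyme Q, at 0.32 (adjusted p = 0.106). Of 14 genes of mitochondrial DNA expression 11 were higher (median 0.08) and 0 passed, with the elongation factor Tefm at 0.33 (0.0879). Of 15 regulators 7 were higher (median 0.00) and 0 passed, with Gabpa, which binds ETS sites, at -0.23 (0.167). The regulators' differences ranged from -0.28 to 0.82, the highest being that of Ppargc1a, which was also the highest in Tg against AL, at 0.58. In CR against Tg 0 genes of these lists passed, and the medians were 0.15, 0.19, 0.04 and 0.00. In Tg against AL 0 passed, and the medians were -0.02, -0.01, 0.00 and -0.04.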

How the data were processed

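The authors deposited, per the file headers, a score for each perfect-match probe, a z-score of log10 intensity, and a linear intensity per probe set in the series matrix. The summary and scaling behind the intensity, and any software, are not given in the sources used here. Direction was checked against the probe z-scores (r from 0.987 to 0.995). Values under 1 would be set to 1 before log2, and 57 control probe sets did not enter. Cox6c-ps1, a pseudogene, was put with the associated genes. Probe sets with a mean above the 25th percentile (23281) were tested with limma 3.58.1 in R 4.3.3 (lmFit, eBayes with trend, 1 mean per group, 12 arrays), two-sided, with Benjamini-Hochberg adjustment over all of them. The number of arrays limits the precision: the median SE of a difference was 0.13. In the labels, replicates are separate biological samples. Gene symbols came from the platform annotation: 20832 probe sets had 1 symbol, 436 several and 9831 none. Promoters came from RefSeq (GRCr8).

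Named members were those called, the 2 with the smallest p and the brightest of each complex, and a fixed set. Ndufa6, Ndufa11, Ndufb8, Ndufc2, Ndufs4, Uqcr11, Cox7b2, Ndufaf3 and, of the regulators, Ppargc1a were chosen after their values were seen. The members, lists and markers were chosen with earlier results of these data known. Whether replicate numbers pair arrays across groups is not settled by the data. The correlation of deviations from group means was 0.320 to 0.620 in the 4 same-numbered pairs of CR and Tg. There CR2 matched Tg4 best and CR3 matched Tg1 best, and CR2, CR4, Tg2 and Tg4 all had high duct epithelium scores. In the other comparisons it was -0.494 to 0.492. The code was tested on simulated data.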

Additional observations from a re-analysis of the deposited data

Results flagged for a closer look

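In a group of 4 arrays, a value was singled out when its gap to the next array took a larger share of the group's range than Dixon's critical value, which chance alone gives in about 1 of 20 groups. It applied to 7 of 99 groups of the 33 named members tested. On Tg2, log2 intensity was 12.30 for Cox7a2l (the other Tg arrays 12.11 to 12.13), 12.84 for Uqcr10 (12.44 to 12.49) and 12.60 for Uqcrfs1 (12.02 to 12.10). Tg2 had high spermatid and duct epithelium scores. Cox6b2 on CR1, also high in spermatid score, was 8.67 (7.32 to 7.50 on the other CR arrays). On Tg3 Cox8a was 13.46 (13.40 to 13.41) and Ndufa4l2 was 8.21 (8.36 to 8.37). Ndufab1 on AL3 was 11.70 (up to 12.07 on the other AL arrays).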

How the results depend on the processing

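The direction of the members' median difference held in CR against AL and CR against Tg under each alternative run. The medians moved by less than the 0.14 SD between arrays. That is a loose bound beside main medians of 0.18 and 0.20, which fell to 0.10 and 0.12 without CR3. In Tg against AL the median was 0.04 with the marker scores and below 0 otherwise. The number of members called did not hold. Leaving out 1 array at a time gave 0 to 3 called for CR against AL, 0 to 8 for CR against Tg and 0 for Tg against AL. The medians were then 0.10 to 0.22, 0.12 to 0.26 and -0.09 to -0.03. Probe sets called in all were then 44 to 283, 40 to 468 and 0 to 2. For CR against AL 1 member was called and for CR against Tg 2, beside 338 and 291 probe sets in all. By median polish the counts were 3 and 6, beside 417 and 386. With the filter at the 50th percentile they were 3 and 5, beside 491 and 388. With the marker scores as covariates they were 19 and 17, beside 1641 and 1543. They were 0 and 0 with the arrays of the 2 groups alone (52 and 20 in all). The same held without the 4 arrays of high spermatid score (2 and 0 in all) and without CR3, CR4 and Tg1 (81 and 76). With arrays centred on the median CR against Tg had 1, beside 179 in all. With the replicate block 0 and 0 were called, and 0 for CR and Tg arrays alone with the block, a setting chosen after seeing the data. The block gave 0 for Tg against AL too, and moved the probe sets called from 338 to 150 and from 291 to 116. Over the alternatives these ranged from 2 to 1641, from 0 to 1543 and, for Tg against AL, from 0 to 2. The causes were not tested. Of the members, Ndufb4, Cox4i1, Cox6c and Atp5f1b had 1 of 11 probes above the deposited saturation level on up to 6 arrays, so that a difference there may be understated.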
